A study of Mus musculus with 5 samples.

Results

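Angptl2, Angptl4 and Angptl6 are 3 mouse genes for angiopoietin-like proteins, a family of secreted glycoproteins. They were followed here in B16F1 cells, a line of mouse melanoma, among 22907 genes that could be named on the arrays. The 3 genes were found through the RefSeq accession of the array's probes. They were selected on the measured level of Angptl6, which stood far higher when the inhibitor CCG1423 was added to TGF-β1 than without it, so that difference is described and not tested. Each gene had 1 probe, spotted once per array, and no spot of theirs carried an outlier flag.

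The series addressed how Tmsb4x, the gene for the actin monomer-binding peptide thymosin β4, bears on signalling by TGF-β and by MRTFs, the actin-regulated coactivators of the transcription factor SRF. Wild-type cells with TGF-β1 and CCG1423, a small-molecule inhibitor of the MRTF pathway, gave 1 array. Tmsb4x knockout cells with TGF-β1 gave 2 arrays, from clone 1 and clone 2. Wild-type cells with TGF-β1 alone and wild-type cells with vehicle gave 1 array each. TGF-β1 was used at 10 ng/ml and CCG1423 at 10 µM, and treatment with them lasted 2 days. No time is given for the vehicle array. Each knockout line was a single clone, the series' title speaks of a knockout where its design text speaks of a knockdown, and the age of the cultures was not given. The treatment label of the CCG1423 array names that agent without TGF-β1, while its title and description name both. It was taken as both; Ccn2, a TGF-β target, was 25.2-fold higher there than in vehicle-treated cells.

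Angiopoietin-like proteins share with the angiopoietins a coiled-coil region and, in most members, a fibrinogen-like domain, but they do not act as ligands of the Tie2 receptor in the way angiopoietins do. Angptl6, also called angiopoietin-related growth factor, is made mainly by the liver in mice and has been tied to blood vessel growth and energy balance. Angptl2 has been studied as an inflammatory factor of adipose tissue and tumours. Angptl4 inhibits lipoprotein lipase and is a known target of PPARs, of hypoxia and, in several cell types, of TGF-β.

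The cells carried the markers of their lineage. All 10 melanocyte markers were well above background on every array, and their summed linear level was 1765 times the 75th percentile of the array with TGF-β1 and CCG1423, 2692 and 2749 times in clones 1 and 2, 2347 times with TGF-β1 alone and 2278 times with vehicle. With TGF-β1 and CCG1423, 3 of the 10 were at least 2-fold lower than with TGF-β1 alone (median -0.35). Against vehicle 5 were lower (median -1.10), and 0 were higher in either comparison. Over all genes 6.98% and 8.06% were lower in these comparisons. Mitf, the melanocyte master regulator, was 2.34-fold and Mlana, a melanosomal antigen, 3.14-fold below TGF-β1 alone. The part of these shifts in the results on CCG1423 was not tested. Of 8 endothelial markers, Vwf and Egfl7 were well above background on all arrays and Pecam1 on all but that of clone 2. Cdh5, Kdr, Tek, Tie1 and Emcn were so on none. From here on, above background means well above it by the scanner software's flag, and below background means not so flagged. Of 6 hepatocyte markers Apoa2 alone was above background on all arrays, and Alb and Ttr, the defining ones, were so on none. The list summed to between 5.16 and 5.88. Of 6 fat cell markers, Lep was above background on all arrays, Cidec and Cfd on some, and Adipoq, Plin1 and Fabp4 on none, with sums from 0.492 to 0.662. Of 6 macrophage and immune markers, Cd68, Csf1r, Itgam and Cd3e were above background on all arrays, and Ptprc and Adgre1 on none. That list summed to 42.6 with TGF-β1 and CCG1423, 41.2 and 32.5 in clones 1 and 2, 33.4 with TGF-β1 alone and 33.6 with vehicle. Cd68, a lysosomal protein, was 2.82-fold higher with CCG1423 than with TGF-β1 alone, and the part of this list in the results was not tested. Tmsb4x itself had a log2 level of 6.79 with TGF-β1 and CCG1423, 5.44 in clone 1, 4.28 in clone 2, 7.12 with TGF-β1 alone and 5.05 with vehicle. Clone 1 was 3.21-fold and clone 2 7.16-fold below wild-type cells with TGF-β1, which did not pass in limma (adjusted p = 0.0857). The place of its probe relative to the edited part of the gene is not given in the sources used here.

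The sequence upstream of Angptl6 is shown with those of Cyb5r2, Ddit3 and Nupr1. These were the 3 genes whose levels followed Angptl6 most closely over all 5 arrays, which include the CCG1423 array that chose it. Over the 4 other arrays Cyb5r2 was 2nd, Ddit3 8th and Nupr1 330th of 12057 genes. Cyb5r2 encodes a cytochrome b5 reductase, Ddit3 the stress-induced transcription factor CHOP, and Nupr1 a small stress-induced nuclear protein. Each run holds 250 bases before to 50 bases after the gene's start, in the direction of the gene, from RefSeq on GRCm38.p6. The positions are chr9:20879661-20879960 (minus strand), chr7:107757983-107758282 (minus strand), chr10:127290543-127290842 (plus strand) and chr7:126625421-126625720 (minus strand). Capitals mark matches to the searched motifs.
Angptl6: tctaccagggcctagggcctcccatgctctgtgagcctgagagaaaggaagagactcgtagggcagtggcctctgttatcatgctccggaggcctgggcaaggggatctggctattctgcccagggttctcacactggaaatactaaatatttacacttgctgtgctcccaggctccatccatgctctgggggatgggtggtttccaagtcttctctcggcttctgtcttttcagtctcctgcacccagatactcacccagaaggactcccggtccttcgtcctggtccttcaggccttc
Cyb5r2: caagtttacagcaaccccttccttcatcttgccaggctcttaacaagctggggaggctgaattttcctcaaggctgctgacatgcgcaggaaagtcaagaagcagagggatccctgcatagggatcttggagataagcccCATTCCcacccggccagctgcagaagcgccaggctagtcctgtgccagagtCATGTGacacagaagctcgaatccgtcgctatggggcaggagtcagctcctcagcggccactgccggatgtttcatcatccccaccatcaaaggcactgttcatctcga
Ddit3: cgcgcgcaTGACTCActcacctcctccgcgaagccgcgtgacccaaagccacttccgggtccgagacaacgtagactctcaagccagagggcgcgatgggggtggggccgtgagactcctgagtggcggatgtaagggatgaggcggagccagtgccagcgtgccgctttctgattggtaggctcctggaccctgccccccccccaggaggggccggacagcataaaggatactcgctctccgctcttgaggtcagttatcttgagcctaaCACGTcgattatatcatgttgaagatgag
Nupr1: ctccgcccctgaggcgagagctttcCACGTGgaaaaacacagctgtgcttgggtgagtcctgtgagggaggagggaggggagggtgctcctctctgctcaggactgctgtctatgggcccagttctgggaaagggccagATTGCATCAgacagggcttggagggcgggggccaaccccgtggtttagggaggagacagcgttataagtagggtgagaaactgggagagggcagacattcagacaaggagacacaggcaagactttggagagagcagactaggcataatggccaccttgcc

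Both strands of these windows were searched for 10 motifs. They were TGATGNAAT (the composite element of ATF4 and C/EBP), TGACTCA (AP-1), TGACGTCA (CREB and ATF), the CArG box of SRF, AGCCAGACA and GTCTAGAC (SMAD), GGAATG (TEAD), ACGTG (hypoxia-inducible factor), CACGTG (E-box) and CATGTG (MITF); ACGTG lies within CACGTG. The Angptl6 window held none of these letter strings, and neither did the Angptl2 window. The Nupr1 window held TGATGNAAT on its minus strand from base 140 to base 148 of the run, a string found in 0.965% of 32851 promoter windows of the same length. It also held CACGTG from base 26 to base 31, as did 7.15% of windows. The Ddit3 window held TGACTCA from base 9 to base 15, found in 5.2% of windows, and ACGTG on the minus strand from base 272, found in 19.6%. The Cyb5r2 window held GGAATG and CATGTG, found in 14.7% and 14.2% of windows. Of 15 genes looked up, 11 had an entry.

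On each of the 5 arrays Angptl6 gave a signal well above background. Its processed signal, in the scanner's intensity units, was 5326 with TGF-β1 and CCG1423, 1034 in clone 1, 348 in clone 2, 440 with TGF-β1 alone and 1076 with vehicle. On the normalized scale (log2 of the signal minus the 75th percentile of the array, so that 0 is that percentile) these were 4.54, 1.88, 0.08, 0.58 and 1.85 in the same order. The CCG1423 array stood highest, and clone 1 and vehicle lay side by side in the middle. The 2 clones, which shared genotype and treatment, had an SD of 1.27 for this gene, against a median SD of 0.20 over 13729 genes. In such bulk RNA, fewer cells that express a gene and less RNA of it per cell cannot be told apart.

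**Figure D1:**
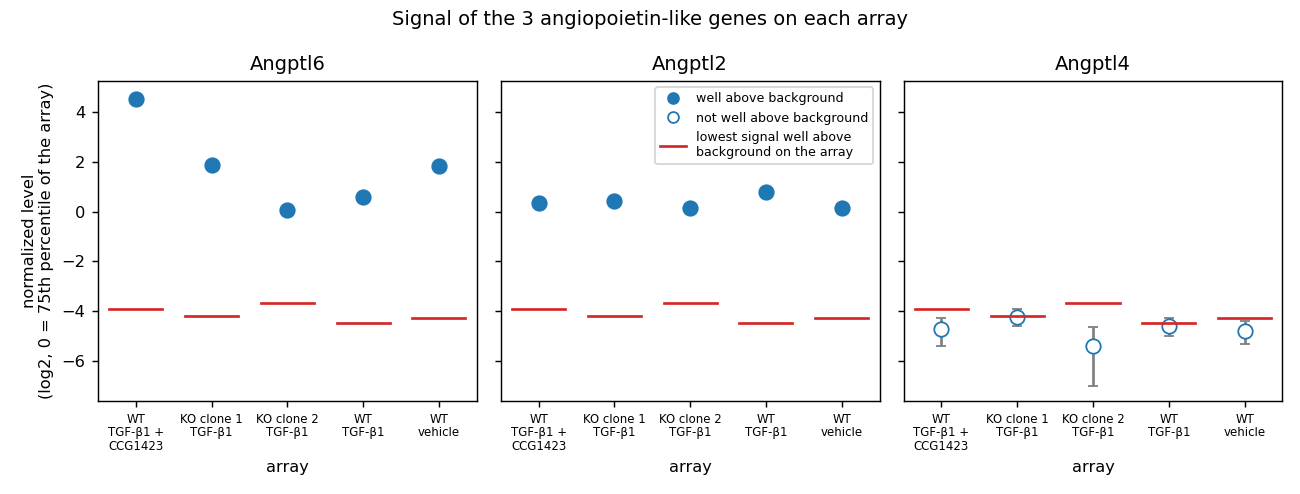
Normalized log2 level (y axis) of Angptl6, Angptl2 and Angptl4 on each of the 5 arrays (x axis); bars are the scanner software's error of the spot, filled points are well above background, and red lines give the lowest signal well above background on that array. Angptl6 reached 4.54 with TGF-β1 and CCG1423, Angptl2 stayed between 0.13 and 0.81, and Angptl4 is open, that is not well above background, on all 5.

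In order, the Angptl6 level with TGF-β1 and CCG1423 exceeded the next one, clone 1, by 2.66 on the log2 scale. Clone 1 exceeded vehicle by 0.03, vehicle exceeded TGF-β1 alone by 1.27, and TGF-β1 alone exceeded clone 2 by 0.50. The first gap is fixed by the choice of the gene. The others all lie between the levels of the 2 clones. They are parts of the clone difference that gives the SD of 1.27, so that SD cannot judge them. The scanner software put the error of each Angptl6 signal at 10.0% to 10.2%, which covers the spot and not the culture.

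Angptl2 was also well above background on all 5 arrays, at signals of 295 with TGF-β1 and CCG1423, 382 in clone 1, 364 in clone 2, 517 with TGF-β1 alone and 328 with vehicle. The normalized log2 levels were 0.36, 0.44, 0.15, 0.81 and 0.13. The array with TGF-β1 alone was the highest and vehicle the lowest. It exceeded clone 1 by 0.37, and clone 1 exceeded the CCG1423 array by 0.08. The CCG1423 array exceeded clone 2 by 0.22 and clone 2 exceeded vehicle by 0.01. With an SD of 0.21 between the clones, clone 2 and vehicle did not differ beyond that spread. The CCG1423 array lies between the 2 clones. Its gaps of 0.08 and 0.22 are parts of their difference, so that SD cannot judge them.

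Angptl4 was well above background on 0 of the 5 arrays. Its signal was 8.61 with TGF-β1 and CCG1423, 14.9 in clone 1, 7.86 in clone 2, 12.2 with TGF-β1 alone and 10.7 with vehicle. The lowest signals that counted as well above background were 15.2, 15.3, 26.0, 13.3 and 15.5 on the same arrays. The scanner error of these spots ran from 23.0% to 68.0%, and no fold is given for the gene. The limit was highest on the clone 2 array, so the gene is least constrained there.

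The array with TGF-β1 and CCG1423, set against the one with TGF-β1 alone, is what chose Angptl6. There the gene was 15.5-fold higher with the inhibitor, at 4.54 against 0.58 on the log2 scale (difference 3.96). It ranked 4 from the top among 12626 genes measured on both arrays. Nctc1 (16.3-fold) and Isl2 (15.6-fold) stood just above it, and Ddit3 (13.7-fold) and G630055G22Rik (11.8-fold) just below. Of the 2 members measured, 1 was at least 2-fold higher, against 6.01% of the 14057 genes compared, and nothing is read from that count. Angptl2 was 1.36-fold lower (0.36 against 0.81, difference -0.45). A difference of 2-fold or more in either direction was found for 13.0% of genes: 845 were higher, and 981 (6.98%) were lower. On the scale of the authors' deposited table that split was 658 higher and 1304 lower. The median of all genes was lower on that scale than on the normalized one (a shift of -0.13).

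Each wild-type condition had 1 array, so these differences have no replicate check and no test. Angptl6 was 6.45-fold higher with TGF-β1 and CCG1423 than with vehicle (4.54 against 1.85, difference 2.69), 50th of 12505 genes measured on both arrays. Axl, a receptor tyrosine kinase, stood beside it at 6.48-fold. Higher by 2-fold or more were 7.56% of 13842 genes and lower 8.06%, or 15.6% in all. Angptl2 was 1.17-fold higher (0.36 against 0.13, difference 0.23). The 2 comparisons share the CCG1423 array.

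With TGF-β1 alone Angptl6 was 2.41-fold lower than with vehicle, at 0.58 against 1.85 (difference -1.27). It was 114th from the bottom of 12893 genes. At least 2-fold lower were 3.27% of 14145 genes and higher 4.95%, or 8.21% in all. Angptl2 went the other way and was 1.60-fold higher, at 0.81 against 0.13 (difference 0.68), short of 2-fold. This comparison uses the TGF-β1 array against which Angptl6 was chosen.

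**Figure D2:**
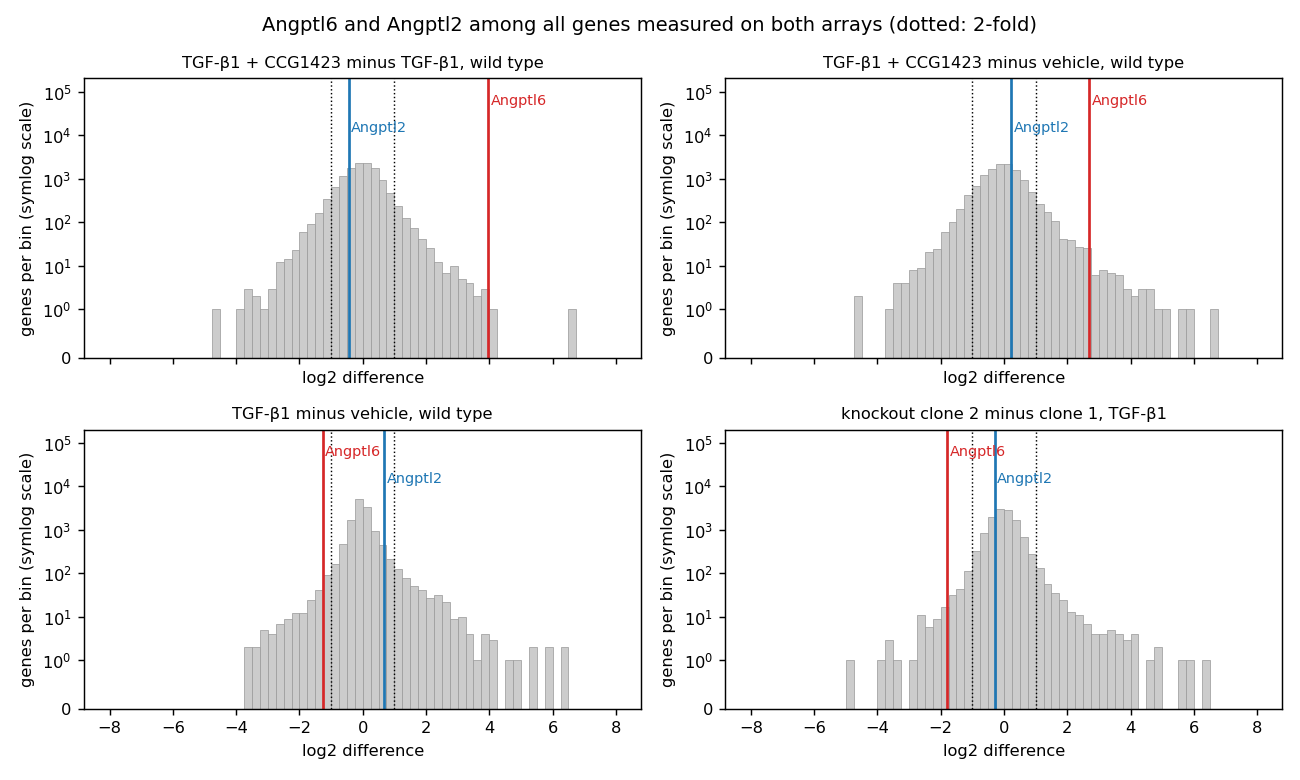
Number of genes (y axis, a log-like scale that is linear up to 1) by log2 difference (x axis, bins of 0.25) for genes measured on both arrays, in 4 comparisons; the red line is Angptl6, the blue line Angptl2, and dotted lines mark 2-fold. Angptl6 lies at 3.96 and 2.69 in the comparisons with CCG1423, at -1.27 for TGF-β1 minus vehicle and at -1.80 for clone 2 minus clone 1, while Angptl2 stays within the dotted lines in all 4.

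The knockout comparison set the 2 clones against wild-type cells with TGF-β1 and was tested with limma, on the spread of the clones. The CCG1423 array was not compared here, but it was in the fit. It thus entered each gene's mean level, which limma uses in setting the SE. A fit on the 3 compared arrays alone is among the alternatives below. Angptl6 averaged 0.98 ± 1.27 (SD, n = 2) in the knockout clones, against 0.58 in wild-type cells with TGF-β1. The log2 difference of 0.40 (SE 0.58) did not pass (limma adjusted p = 1.00). Limma draws this SE towards the spread of other genes, so it is not the spread of Angptl6 alone. The clones lay on opposite sides of wild type: clone 1 was 2.46-fold higher and clone 2 was 1.42-fold lower. Angptl2 averaged 0.29 ± 0.21 (SD, n = 2) in the clones, against 0.81 in wild type, a difference of -0.52 (SE 0.32) that did not pass either (limma adjusted p = 1.00). Both clones were lower for Angptl2, clone 1 by 1.29-fold and clone 2 by 1.59-fold. Over all genes 0.233% passed in limma (32 of 13729, of which 0.00728% were higher and 0.226% lower), and 2.28% were at least 2-fold away in the same direction in both clones. Those were 96 higher (0.699%) and 217 lower (1.58%), and 52 and 273 on the scale of the authors' deposited table. Among genes well above background on all 3 arrays the balance turned, with 79 higher and 53 lower. The wild-type side is the array used to choose Angptl6, and nothing states that the cultures were grown separately, so the p-values speak to the spread of these samples alone, which may be technical.

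Clone 2 had 3.49-fold less Angptl6 signal than clone 1 (0.08 against 1.88, difference -1.80). That placed the gene 47th from the bottom of 12368 genes measured in both clones. Cyb5r2 stood next to it at -1.83. At least 2-fold lower in clone 2 were 3.34% of 13849 genes and higher 4.24%, or 7.57% in all. Angptl2 was 1.23-fold lower in clone 2. On the scale of the deposited table all genes stood higher by 0.32 in this comparison than on the normalized scale.

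Among other genes of the family, Angptl8 and Angpt2 were well above background on all arrays. Angptl8, a small relative without the fibrinogen-like domain, had log2 levels of -1.55 with TGF-β1 and CCG1423, -1.80 in clone 1, -2.17 in clone 2, -1.76 with TGF-β1 alone and -2.03 with vehicle. Angpt2, a context-dependent ligand of Tie2, had -0.54, -0.30, -0.50, -0.35 and -0.02 in the same order. Neither reached 2-fold in any comparison. Angpt1 and Angpt4, the other Tie2 ligands, and Angptl7 were below background on all arrays.

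**Figure D3:**
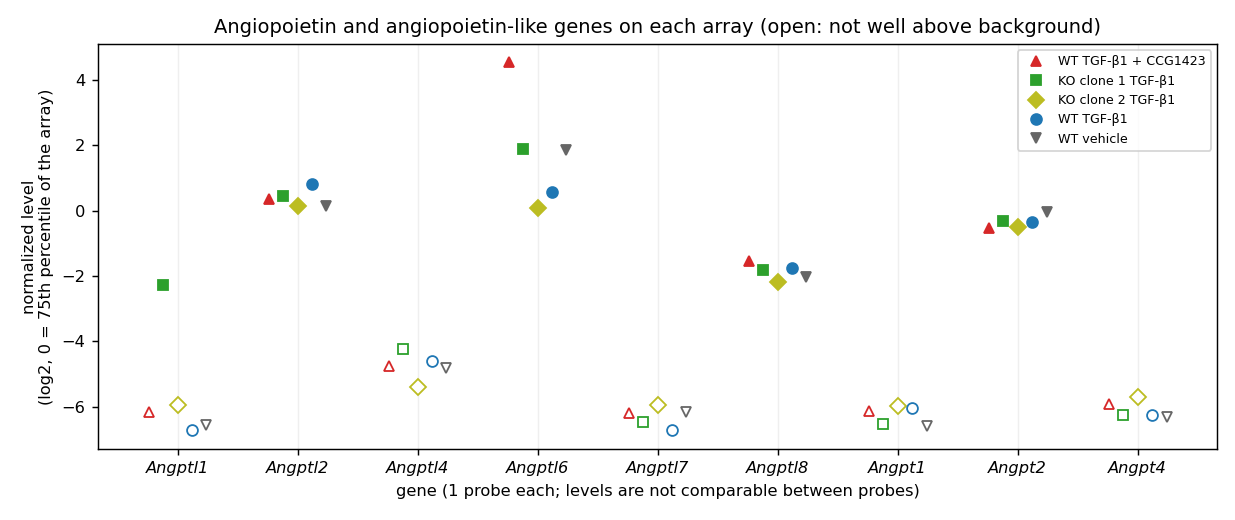
Normalized log2 level (y axis) of 9 angiopoietin and angiopoietin-like genes (x axis) on the 5 arrays, with filled symbols where the probe was well above background and open symbols where it was not. Angptl2, Angptl6, Angptl8 and Angpt2 are filled on every array, and Angptl1 on the array of clone 1 alone.

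Angptl1, a vascular member of the family, was above background in clone 1 and on no other array. It had a log2 level of -2.26 in clone 1 and was at least 2.65-fold lower in clone 2.

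Receptors and binding partners of the family were measured for 7 of 12 genes. With CCG1423, 1 of the 7 was at least 2-fold higher and 1 lower against TGF-β1 alone. Over all genes 6.01% were higher and 6.98% lower, and counts this small cannot be told apart from those shares. Itgb3, an integrin chain, was 2.06-fold higher and Ptprb, a phosphatase that acts on Tie2, 3.19-fold lower. With TGF-β1 against vehicle, 2 were higher and 0 lower, beside 4.95% and 3.27% of all genes. The 2 were Itgb5, another integrin chain (2.22-fold), and Ptprb (2.04-fold). Tek, which encodes Tie2, and Tie1 were below background on all arrays. The list medians were -0.02 and 0.24, beside -0.05 for all genes in both comparisons.

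The lipoprotein lipase system, on which Angptl4 and Angptl8 act, had 13 of 19 genes measured when CCG1423 was compared with TGF-β1 alone. Higher was 1 of them and lower 2 (median 0.04), beside 6.01% and 6.98% of all genes in that comparison. Apoc2, the activator of the lipase, stood 2.20 log2 units higher. Lpl, the lipase itself, was below background on all arrays. With TGF-β1 against vehicle, 2 of 13 were higher and 0 lower (median 0.02), beside 4.95% and 3.27% of all genes. Furin, a protease that cleaves several angiopoietin-like proteins, was 3.43-fold higher in that comparison. With TGF-β1 and CCG1423 against vehicle, 4 of 12 were higher and 1 lower (median 0.25), beside 7.56% and 8.06% of all genes. PPAR factors and targets include regulators of Angptl4. With CCG1423 against TGF-β1 alone, 1 of 15 measured was higher and 0 were lower (median -0.03), near the 6.01% and 6.98% of all genes. The higher gene was Fgf21, a metabolic hormone, at least 15.5-fold higher and below background with TGF-β1 alone.

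Hypoxia and glycolysis targets stood lower with CCG1423 than with TGF-β1 alone, with a median of -0.67 beside -0.05 for all genes. At least 2-fold lower were 6 of 23 measured genes and 0 were higher, beside 6.98% and 6.01% of all genes. Egln3, an oxygen-sensing hydroxylase, was 4.22-fold lower and Bnip3, a mitophagy receptor, 3.04-fold. In the knockout, 2 of 23 were at least 2-fold higher in both clones (median 0.41, against -0.01 for all genes), beside 0.699% of all genes. Adm, the vasoactive peptide adrenomedullin, rose by 2.71 (SE 0.35, limma adjusted p = 0.0307). The call was lost in limma with quantile normalization (adjusted p = 0.123) and with the mean of all probes of a gene (adjusted p = 0.0831), and it sets the clones against 1 wild-type array. Aldoc, a glycolytic aldolase, was higher by 2.21 and did not pass (limma adjusted p = 0.0509). Angptl4, itself a hypoxia target, was not well above background in any of these samples.

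Of 13 measured TGF-β targets, 9 stood 2-fold or more above vehicle under TGF-β1 and 0 below it (median 2.13). Over all genes 4.95% stood above it, and with CCG1423 against TGF-β1 alone 6.01% were higher and 6.98% lower. The list was chosen with earlier results of these data known, so its counts describe the treatment and are no independent check of it. Ccn2, a matricellular protein, was 55.5-fold higher. With CCG1423 added, 3 of the 13 were higher and 2 lower than with TGF-β1 alone (median -0.13), among them Tgif1, a SMAD corepressor (2.27-fold higher), and Col1a1, a collagen chain (2.51-fold lower). That balance depended on the scaling, with 2 higher and 2 lower under quantile normalization or normexp and 1 higher and 2 lower on the deposited table.

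Genes of the integrated stress response, the programme through which ATF4 and CHOP act, stood higher with CCG1423. Of 20 measured, 11 were at least 2-fold higher and 0 lower than with TGF-β1 alone, beside 6.01% and 6.98% of all genes. Their median was 1.10. Cdsn, a gene of corneocyte adhesion that was placed in this list, was 104-fold higher and Ddit3 13.7-fold. The list was chosen with earlier results of these data known, so its counts are a description and not a test. Against vehicle, 10 of 20 were higher and 0 lower with TGF-β1 and CCG1423 (median 0.97, beside -0.05 for all genes). With TGF-β1 against vehicle, 0 were higher and 3 lower (median -0.49), led by Slc7a11, a cystine transporter (3.62-fold), and Ddit3 (3.23-fold). In clone 2 against clone 1, 1 was higher and 3 lower (median -0.50), or 1 and 1 on the scale of the deposited table (median -0.18). Gdf15, a stress-induced cytokine, was 5.19-fold lower and Nupr1 2.20-fold. In the knockout 1 of 20 was lower in both clones and 0 were higher, with a median of -0.08. Over all genes, 7.56% were higher with TGF-β1 and CCG1423 than with vehicle, and 3.27% lower with TGF-β1 than with vehicle. Lower in clone 2 than in clone 1 were 3.34%, and lower in both clones than in wild type 1.58%. Counts with CCG1423 against TGF-β1 alone were between 9 and 11 under the other scalings and normexp background correction.

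**Figure D4:**
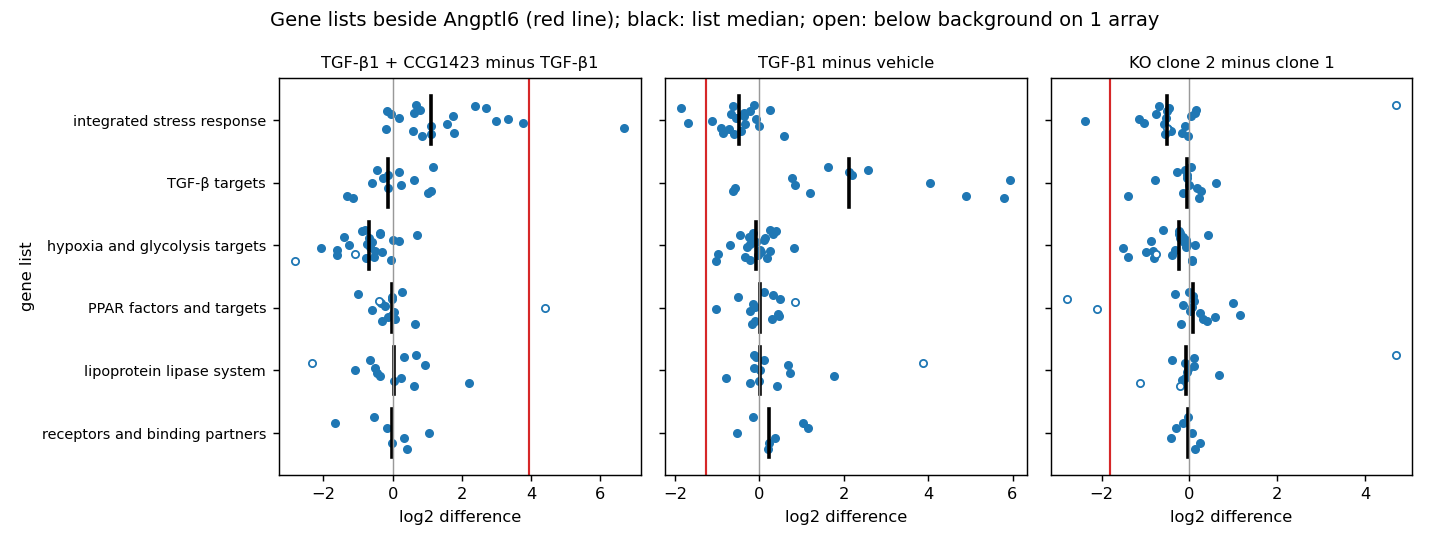
Log2 difference (x axis) of each measured gene of 6 lists (rows) in 3 comparisons, with the list's median as a black bar, Angptl6 as a red line, and open points for genes below background on 1 array. The stress response list has medians of 1.10, -0.49 and -0.50, and the TGF-β targets have 2.13 for TGF-β1 minus vehicle.

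Likeness of profile was taken as the root mean square difference over the 5 arrays, after each gene's own mean was subtracted. Among 12057 genes well above background on every array, Cyb5r2 was nearest to Angptl6 at 0.26, then Ddit3 at 0.34, Nupr1 at 0.53, Gdf15 at 0.56 and Il4i1, an amino acid oxidase, at 0.59. The median over all candidates was 1.58. Ddit3, Nupr1 and Gdf15 belong to the stress response list. Cyb5r2 had log2 levels of 3.1 with TGF-β1 and CCG1423, 0.85 in clone 1, -0.98 in clone 2, -0.12 with TGF-β1 alone and 0.49 with vehicle. Ddit3 had 5.25, 2.73, 1.70, 1.47 and 3.17 in that order, so that TGF-β1 alone and not clone 2 was lowest. Nupr1 had 5.42, 3.05, 1.91, 2.07 and 2.15, with vehicle close to TGF-β1 alone, and Gdf15 had 2.22, -0.38, -2.76, -0.76 and 0.36.

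**Figure D5:**
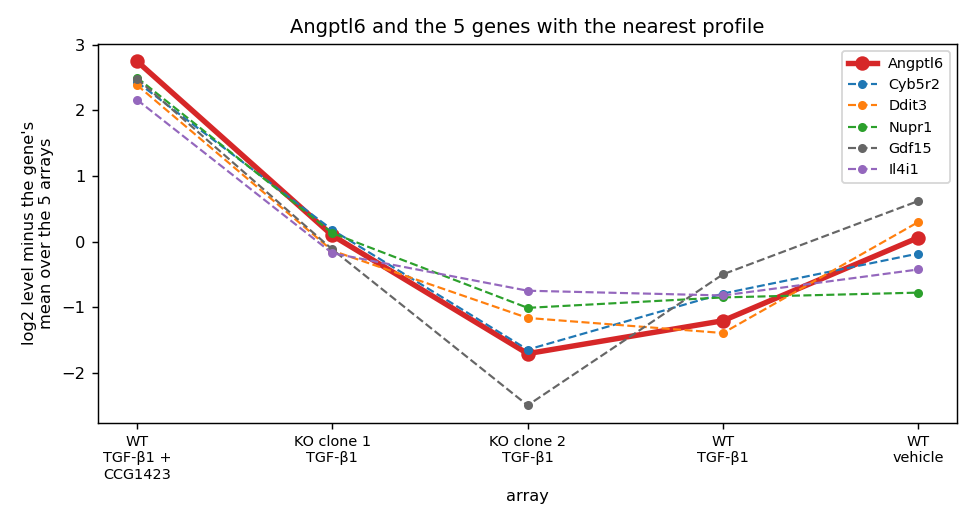
Log2 level minus the gene's own mean over the arrays (y axis) for Angptl6 (thick red line) and the 5 genes nearest to it, on the 5 arrays (x axis). All 6 are highest with TGF-β1 and CCG1423; on the vehicle array Gdf15 lies above Angptl6 and Nupr1 below it.

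This order changed when the array that chose Angptl6 was left out. Over the 4 other arrays, an alternative added after the values were seen, Cyb5r2 was second nearest (0.23) and Ddit3 was 8th (0.32). Nupr1 was 330th, Gdf15 580th and Il4i1 313th of 12057, and 1 of the 5 genes was among the nearest 5. Hpgds, a prostaglandin D synthase, was then nearest at 0.13.

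The genes nearest to Angptl2 in profile were Ccser1 (0.06), 1700067G17Rik (0.06), Gorasp1 (0.07), Gpihbp1 (0.08) and Extl3 (0.08), beside a median of 0.36 over the candidates. Gpihbp1 anchors lipoprotein lipase to the vessel wall, and Extl3 is a heparan sulfate synthesis enzyme. Over the 4 arrays without CCG1423, 2 of these 5 were among the nearest 5.

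Next to Angptl6 in the RefSeq gene table, Shfl, an interferon-induced antiviral factor whose gene overlaps it, was 2.25-fold higher with CCG1423 than with TGF-β1 alone and 2.07-fold higher than with vehicle. Its log2 levels were -1.34 with TGF-β1 and CCG1423, -2.03 in clone 1, -2.56 in clone 2, -2.51 with TGF-β1 alone and -2.39 with vehicle. Col5a3, a collagen chain on one side, was 3.12-fold higher with CCG1423 than with TGF-β1 alone. It differed by -0.78 with TGF-β1 against vehicle, short of 2-fold. In clone 2 it was below background and at least 5.60-fold lower than in clone 1. Ppan, a ribosome biogenesis factor on the other side, differed by -0.39 with CCG1423 against TGF-β1 alone, and Rdh8 was below background on all arrays.

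Ralgps1, which overlaps Angptl2, differed by 0.37 with CCG1423 against TGF-β1 alone, and Zbtb43 by 0.04. Garnl3 differed by -0.04 there and was 3.22-fold higher in clone 2 than in clone 1. Zbtb34 was below background on the CCG1423 array and gave no 2-fold bound. Around Angptl4, Marchf2, Rab11b, Kank3, Rps28 and Ndufa7 were measured on all arrays and none reached 2-fold in the comparisons made; with CCG1423 against TGF-β1 alone Marchf2 differed by 0.65 and Rab11b by -0.76.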

How the data were processed

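RNA of 5 cultures was measured on 5 one-colour (Cy3) Agilent arrays, 1 per culture, all on 1 slide in the same scan per the file headers, so no batch could be tested. The processed signal is an intensity that the authors' scanner software, Agilent Feature Extraction 12.0.3.1 per the submitters' processing notes, corrected for background, per the file headers. Its 0 or 1 flags (score columns) mark saturation, outlier spots and signal clearly over background, per the file headers. The authors' deposited table holds the same intensity times 1 constant per array (its log2 is 0.34 on the CCG1423 array, -0.17 and -0.08 on those of clones 1 and 2, 0.12 with TGF-β1 alone and -0.01 with vehicle; column medians 27.5, 23.2, 28.8, 29.2 and 26.9). It is linear and not centred, its direction is that of the intensity, and the rule behind the constants is not known.

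Control spots (3671) and outlier spots (107 to 141 per array) were left out. The 75th percentile over probes was subtracted from the log2 signal; it was 230 to 329 in signal. Probes well above background made up 48.2% to 53.8% per array, and 0 spots were saturated. RefSeq accessions named 32988 of 56595 probes in a table of GRCm38.p6. The headers name an older build, so the coordinates given are those of the promoter table. For 7897 genes with several probes the brightest was used. Repeated spots of a probe had a median SD of 0.039 to 0.045 (log2); the number of arrays limits the precision.

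A gene was compared where, in at least 1 group, all arrays had its probe well above background. A fold against a signal below background is a bound, "at least", on the normalized log2 scale against the higher of that signal and the lowest signal well above background on the array. For the knockout, limma 3.58.1 was run in R 4.3.3 (eBayes with trend, 5 arrays in 4 groups, 1 residual degree of freedom, Benjamini-Hochberg adjustment, threshold 0.05), which assumes that the lone wild-type array varies like the clones. The fit was also run on simulated data that gave the wild-type array the same spread as the clones, so that assumption was not tested. Other steps used pandas 2.3.3, numpy 2.4.6 and matplotlib 3.10.9 under Python 3.11.15.

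The members and gene lists were chosen with earlier results of these data known. Named are the members, their relatives and neighbours, up to 2 highest and 2 lowest genes at 2-fold or more per list and comparison, and the 5 genes of nearest profile. Alternatives varied background correction, scaling, probe filter, outlier spots, probe choice and the fit. Some genes that this rule names are not reported here.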

Additional observations from a re-analysis of the deposited data

How the results depend on the processing

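Angptl6 differed by 3.65 to 4.07 (log2) between CCG1423 with TGF-β1 and TGF-β1 alone over 8 alternatives, by 2.56 to 2.81 against vehicle, and by -1.27 to -1.09 for TGF-β1 against vehicle. The value of 3.65 came from normexp background correction on spot medians. Angptl2 differed by -0.58 to -0.40, 0.20 to 0.25 and 0.60 to 0.78 in the same comparisons. In the knockout Angptl6 was at -0.50 without clone 1 and 1.30 without clone 2, so its direction rests on 1 clone; Angptl2 ran from -0.71 to -0.37 over 12 alternatives. The limma adjusted p of both genes stayed between 0.928 and 1.00.

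Counts of genes at 2-fold or more fell under normexp to 871 for the inhibitor comparison, that of CCG1423 and TGF-β1 with TGF-β1 alone (1826 in the report), 573 for TGF-β1 against vehicle (1162), 1190 for CCG1423 with TGF-β1 against vehicle (2162) and 133 for both clones (313). With genes above background on each array compared they were 622 for TGF-β1 against vehicle and 132 for both clones, where fewer genes were counted. With a single clone the knockout count was 1048 to 1117. Limma calls (32) were 85 under normexp, 51 with scaling on the median, 220 on the deposited table, 3 with genes above background on every array, 279 with no filter, 184 without trend and 75 with 3 arrays. They were 0 with quantile normalization (785 genes at an unadjusted p under 0.05) and 0 with the mean of probes (753); 793 genes had such a p in the report's fit. The cause was not tested.

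The nearest 5 profiles of Angptl2 shared 3 genes with those by the largest difference. Normexp on spot means was planned and was not run, since the uncorrected signal read here is the spot median; the version on medians and the likeness over 4 arrays were chosen after seeing the data. The deposited table carries its own constants and lacks the percentile scaling. On it, the median of all genes shifted by -0.13, 0.10 and -0.20 for the inhibitor comparison, TGF-β1 against vehicle and the knockout. No paired analysis was possible because the groups compared share fewer than 2 replicate numbers.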
